A study of Mus musculus with 6 samples.

Results

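The genes described are 41 enzymes and readers that place, remove or bind acetyl and methyl marks on chromatin, chosen by symbol from the deposited gene table, which lists 25140 genes. They comprise the histone deacetylases *Hdac1* to *Hdac11*, the sirtuins *Sirt1* to *Sirt7*, 9 histone acetyltransferases, the bromodomain readers *Brd2* and *Brd3*, 9 histone methyltransferases and 3 DNA methyltransferases. The rule goes by symbol and uses no measured value, but the members were chosen with earlier results of these data known. All 41 symbols were found.

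The measurements are RNA-seq counts from 6 libraries of mouse fibroblasts, 3 given vehicle and 3 given TGFβ, the cytokine that drives fibroblasts toward contractile, matrix-secreting myofibroblasts. The labels give C57BL/6 primary fibroblasts of the adult heart at passage 1, grown in DMEM with 25 mM glucose and 10% FBS and then held in 1% FBS for 16 h. One group then received TGFβ at 10 ng/ml for 24 h and the other did not, and no allele or other agent separates the groups. The text of the study's results speaks of mouse embryonic fibroblasts where its methods and the labels speak of cardiac fibroblasts. For all its experiments, the methods put the start of 1% FBS at 24 h before TGFβ, and keep it throughout. The labels give 16 h. The study calls the libraries biological replicates, but neither it nor the labels tie them to separate animals or cultures, so p-values measure the spread between these libraries, which may be technical.

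Acetylation of histone tails loosens nucleosomes and is read by bromodomain proteins, while deacetylases, mostly held in corepressor complexes, take the mark away. Methylation has no single sense: on lysine 9 of histone H3 it marks silent chromatin, on lysine 4 active promoters, and on lysines 36 and 79 transcribed gene bodies, and methylated DNA is copied to the new strand by a maintenance enzyme at each S phase. In fibroblasts, several of these enzymes are known to bind SMAD proteins, the transcription factors that carry the TGFβ signal.

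The libraries held 27851677 to 31072338 counts, and 14334 genes passed the filter on low counts. Of 12 genes known to respond to TGFβ, 8 were higher and 1 lower, a check on the group labels. Of 10 fibroblast markers, 0 were higher and 8 lower with TGFβ, and their summed level was 53481 to 63310 CPM (the read count normalised to the size of the library) with vehicle and 49902 to 55763 with TGFβ. Markers of other cells were present at far lower sums: 498 to 780 and 455 to 637 CPM for 10 endothelial markers, 258 to 369 and 227 to 336 CPM for the leukocyte markers, 453 to 532 and 369 to 458 CPM for 10 smooth muscle and pericyte markers, and 16.9 to 92.8 CPM over all libraries for mesothelium. Each sum is of different genes, so the sums do not give the shares of the cell types. By edgeR, 3 smooth muscle or pericyte genes were higher and 1 lower. The lists are not separate, as *Cnn1* is also among the 12 TGFβ response genes, which hold the fibroblast markers *Col1a1* and *Col3a1* too. By edgeR 0 endothelial and 0 leukocyte markers were called, with 0 at an unadjusted p under 0.05 and 0 by DESeq2. No mesothelial marker was called by edgeR or DESeq2, with 1 at an unadjusted p under 0.05. The cardiomyocyte markers summed to 38.7 to 59.8 CPM with vehicle and 27.5 to 40.7 with TGFβ, and of the 3 that passed the filter 0 were called by edgeR and 1 by DESeq2, with 1 at an unadjusted p under 0.05.

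All 41 members passed the filter, and 13 of them changed with TGFβ at an adjusted p under 0.05 (edgeR's quasi-likelihood test, Benjamini-Hochberg adjustment over all genes tested). *Hdac1*, *Hdac2*, *Brd3* and *Setd7* rose, and *Hdac5*, *Hdac7*, *Hdac10*, *Hdac11*, *Sirt2*, *Sirt7*, *Kat2b*, *Ehmt2* and *Dnmt1* fell. The 13 are 31.7% of the members, where 40.7% of all genes tested were called. The 4 that rose are 9.76% against 20.5% of all genes, and the 9 that fell are 22.0% against 20.1%. The median log2 fold change of TGFβ over vehicle was -0.07 over the members and -0.00 over all genes. Changes were small, with a median size of 0.35 on the log2 scale among the 13, against 0.40 among all called genes, and 2 called members (4.88%), *Hdac11* and *Kat2b*, moved by at least 0.5, against 16.2% of all genes. In 21 members (51.2%) the CPM of the groups did not overlap, against 53.3% of all genes. These are levels of RNA in whole cultures, where fewer cells of a type and less RNA per cell cannot be told apart.

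**Figure D1:**
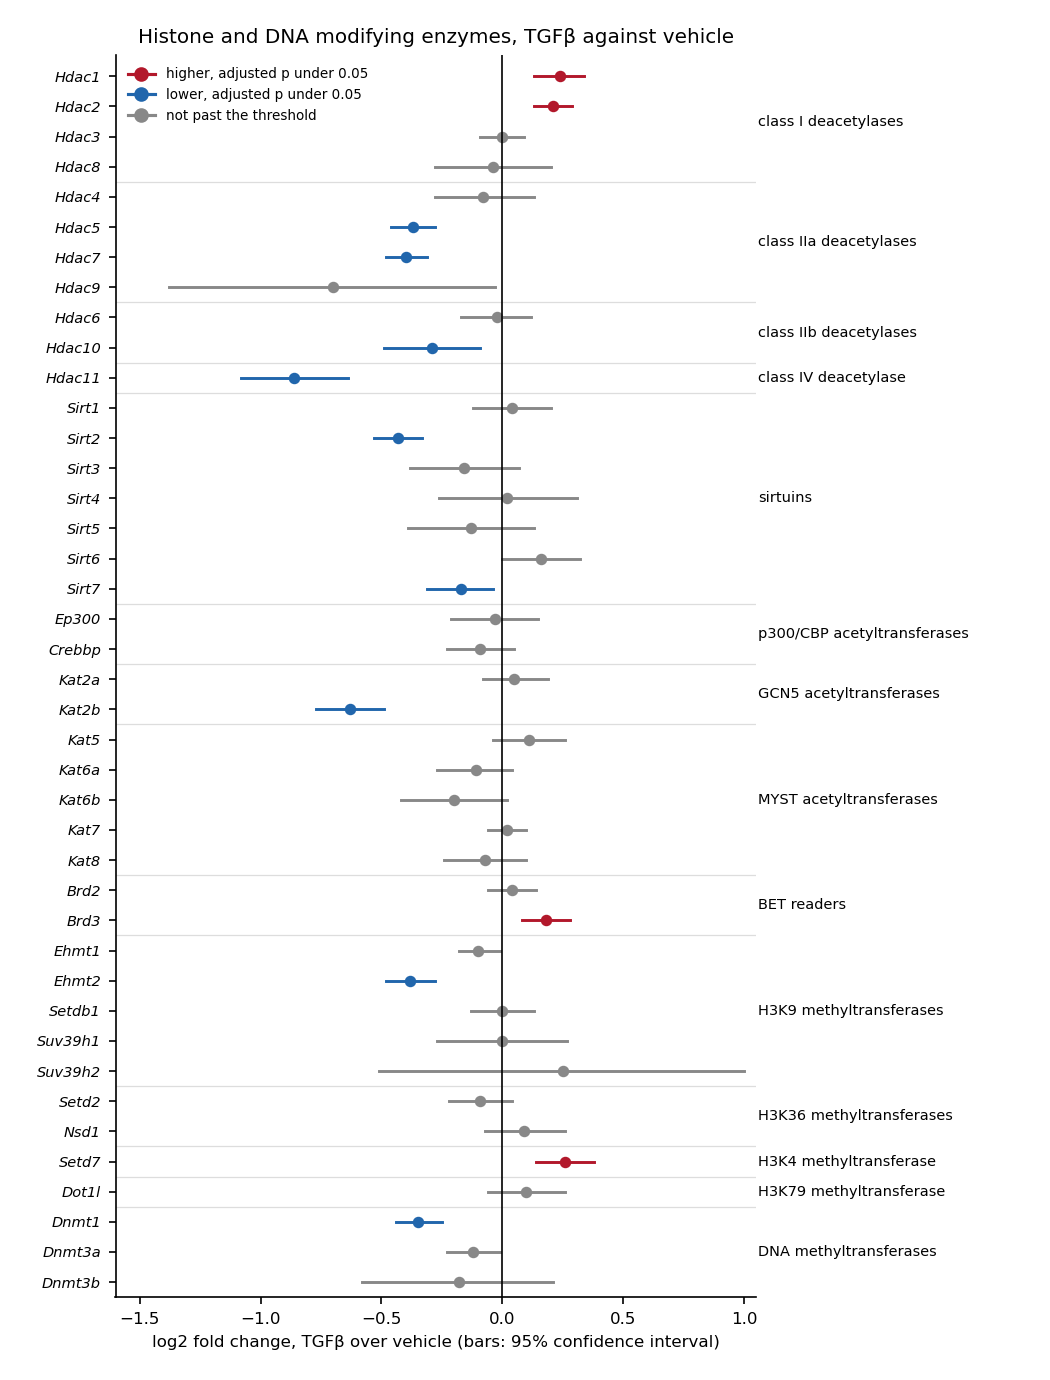
Log2 fold change of TGFβ over vehicle (x axis) for the 41 members, ordered by enzyme class, with points for the estimate and bars for the 95% confidence interval of the edgeR fit over 3 libraries a group. Red marks the 4 members that rose and blue the 9 that fell at an adjusted p under 0.05. Changes to the left are the larger, down to -0.86 for *Hdac11*, while no estimate exceeds 0.26 to the right.

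Of the 41 members, 36 had a promoter in the RefSeq table for GRCm38.p6. For each gene only the most upstream start listed was used. The 250 bases before these starts had a median GC content of 61.8% and a median of 17 CpG dinucleotides, against 52% and 6 over the 27018 promoters of the table. The GC box GGGCGG, searched on both strands, was in 23 of the 36 windows (63.9%), against 33.0% of all promoters. The promoters of the table were not limited to expressed or protein-coding genes, while the members are both. These shares therefore do not set the members apart from expressed genes at large. The SMAD binding element CAGAC, also on both strands, was in 15 (41.7%), against 42.2%, and CCAAT in 14 (38.9%), against 34.5%. The CRE TGACGTCA was in 1 of the windows against 1.60% of all. The E2F letters TTTGGCGC were in 0 against 0.437% of all, and TTTCCCGC in 1, that of *Sirt4*, against 0.929%. None of these motifs contains another, though neighbouring matches can share letters. A match describes letters in a window, not a bound site.

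For 4 of the called members, the window lies outside every annotated exon of the gene. All 4 are shown for that reason. They are the pair of class IIa deacetylases that fell together, *Hdac7* and *Hdac5*, the maintenance DNA methyltransferase *Dnmt1*, which also fell, and *Hdac2*, which rose. Each line is 5′ to 3′ on the strand of the gene in GRCm38.p6, ending at the base before the gene's most upstream RefSeq start. Capitals mark CAGAC or its reverse complement.
*Hdac7*, chr15:97844503-97844752, minus strand: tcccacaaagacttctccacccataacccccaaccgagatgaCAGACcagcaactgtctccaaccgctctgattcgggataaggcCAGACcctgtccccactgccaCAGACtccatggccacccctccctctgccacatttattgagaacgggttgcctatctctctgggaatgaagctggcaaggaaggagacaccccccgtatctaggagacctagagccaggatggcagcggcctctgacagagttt
*Hdac5*, chr11:102230173-102230422, minus strand: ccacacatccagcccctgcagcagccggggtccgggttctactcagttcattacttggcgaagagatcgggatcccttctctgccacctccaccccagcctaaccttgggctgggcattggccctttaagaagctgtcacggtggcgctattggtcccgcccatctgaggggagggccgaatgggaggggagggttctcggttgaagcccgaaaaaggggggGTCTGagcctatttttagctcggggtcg
*Dnmt1*, chr9:20959889-20960138, minus strand: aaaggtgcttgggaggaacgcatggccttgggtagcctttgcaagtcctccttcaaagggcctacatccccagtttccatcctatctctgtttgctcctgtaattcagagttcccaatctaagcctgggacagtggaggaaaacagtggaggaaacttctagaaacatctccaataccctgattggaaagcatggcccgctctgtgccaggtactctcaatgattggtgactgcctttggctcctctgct
*Hdac2*, chr10:36974294-36974543, plus strand: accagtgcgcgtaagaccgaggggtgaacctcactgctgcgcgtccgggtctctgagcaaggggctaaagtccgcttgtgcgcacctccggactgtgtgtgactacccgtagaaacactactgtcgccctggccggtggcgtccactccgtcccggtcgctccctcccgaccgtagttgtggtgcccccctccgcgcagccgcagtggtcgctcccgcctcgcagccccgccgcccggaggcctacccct

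The *Hdac7* window held 3 SMAD elements and no GC box, and its GC content was 56.4%. The *Hdac5* window held 1 SMAD element, 1 GC box and 2 CCAAT boxes at a GC content of 60.8%. In the *Dnmt1* window there were 4 CCAAT boxes, no SMAD element and 2 CpG dinucleotides at 50.4% GC. The *Hdac2* window, at 68.8% GC with 27 CpG dinucleotides, held 1 GC box and no SMAD element. Over all members with a window, the SMAD element stood in 2 of the 3 that rose, 4 of the 8 that fell and 9 of the 25 that were not called. Windows before any start further downstream were not examined, and which start these cells use was not tested.

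Class I deacetylases are the nuclear enzymes of the main corepressor complexes. *Hdac2*, a subunit of the Sin3, NuRD and CoREST complexes (chr10:36974544-37001889, plus strand), had 76.0, 77.5 and 74.5 CPM with vehicle and 88.8, 88.4 and 86.7 CPM with TGFβ. All 3 TGFβ libraries lay above all vehicle libraries, and the log2 fold change was 0.21 (SE 0.04, edgeR adjusted p = 0.00266). *Hdac1*, its close relative in the same complexes, rose by a like amount, by 0.24 on the log2 scale (SE 0.05, edgeR adjusted p = 0.00475), from a mean of 19.5 to 23.0 CPM per kb of exons. The *Hdac1* value is uncertain because 52.5% of its 75-base windows also occur in the pseudogene *Gm10093*. *Hdac3*, a catalytic subunit of corepressor complexes, had 49.3, 48.9 and 47.3 CPM with vehicle and 48.7, 49.7 and 47.3 CPM with TGFβ. The groups overlapped, and the 95% confidence interval of its log2 change ran from -0.09 to 0.09. *Hdac8*, an X-linked deacetylase that also acts on cohesin, was the least abundant of the class at 1.95 CPM per kb with vehicle, with a log2 change of -0.04 (interval -0.28 to 0.20). The summed level of the class was 50.4 ± 1.21 CPM per kb with vehicle and 56.5 ± 1.04 with TGFβ (SD, n = 3).

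Class IIa deacetylases shuttle between nucleus and cytoplasm, bind MEF2 factors and have little catalytic activity of their own. *Hdac7* (chr15:97792664-97844502, minus strand), known from endothelial cells and thymocytes, had 134, 134 and 129 CPM with vehicle and 102, 100.3 and 98.7 CPM with TGFβ. The groups were well apart, TGFβ standing at 75.9% of vehicle, and this was the smallest adjusted p of all members (log2 fold change -0.40, SE 0.04, edgeR adjusted p = 1.56e-04). *Hdac5* (chr11:102194432-102230166, minus strand), a signal-responsive repressor of MEF2, had 88.4, 87.9 and 89.5 CPM with vehicle and 65.8, 70.3 and 69.6 CPM with TGFβ. Its groups were likewise apart, at a log2 fold change of -0.37 (SE 0.04, edgeR adjusted p = 3.07e-04). *Hdac4*, the third large repressor of the class, gave -0.08 with overlapping groups. *Hdac9* had the second most negative estimate of all members, -0.70, but it was counted at 1.00 to 3.05 CPM and missed the threshold (SE 0.29, edgeR adjusted p = 0.0899). Without the vehicle library of 29331999 counts, its highest, the estimate was -0.36, and it ran from -0.36 to -0.86 over all removals of 1 library. Its vehicle libraries spread from 1.65 to 3.05 CPM, above the 1.00 to 1.5 CPM of the TGFβ libraries.

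*Hdac7* made up 62.2% and *Hdac5* 32.1% of the summed class IIa level per kb with vehicle, and 61.1% and 32.1% with TGFβ. The sum was 31.4 ± 0.143 CPM per kb with vehicle and 24.3 ± 0.151 with TGFβ (SD, n = 3), which do not overlap. *Cdh5*, given as an example of the 10 endothelial markers, had 156, 173 and 271 CPM with vehicle and 125, 134 and 203 CPM with TGFβ. Its groups overlapped. In column order, each TGFβ value of *Cdh5* stood below the vehicle value at the same place. So did the summed endothelial markers, at 498, 566 and 780 CPM with vehicle and 455, 507 and 637 CPM with TGFβ. Whether the columns pair in this way is not given, and the overlaps and calls here are unpaired. The log2 fold changes of the 10 markers ran from -0.54 to 0.25, with 7 below 0 and a median of -0.30, and 0 were called. The part of these cells in the *Hdac7* value was not tested.

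Class IIb and class IV deacetylases, enzymes with many targets outside histones, were at 1.93 to 3.51 CPM per kb with vehicle. *Hdac11* (chr6:91156665-91174692, plus strand), the lone class IV enzyme and a remover of long-chain fatty acyl groups, had 9.96, 11.1 and 9.62 CPM with vehicle and 6.07, 5.55 and 5.30 CPM with TGFβ. Every TGFβ library lay far below every vehicle library, and this was the largest change among called members (log2 fold change -0.86, SE 0.09, edgeR adjusted p = 3.56e-04). *Hdac10* (chr15:89123307-89128700, minus strand), a polyamine deacetylase of the cytoplasm, had 6.54, 6.41 and 6.57 CPM with vehicle and 5.26, 5.09 and 5.58 CPM with TGFβ. The groups did not overlap and the log2 fold change was -0.29 (SE 0.09, edgeR adjusted p = 0.0293), but DESeq2 gave an adjusted p of 0.119, and leaving out any one of 5 of the 6 libraries ended the call, at adjusted p from 0.0696 to 0.0912. *Hdac6*, the tubulin deacetylase, gave -0.02 (interval -0.17 to 0.12).

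Sirtuins are deacylases that consume NAD, with *Sirt1*, *Sirt6* and *Sirt7* in the nucleus, *Sirt2* mostly in the cytoplasm and *Sirt3*, *Sirt4* and *Sirt5* in mitochondria. *Sirt2* (chr7:28766735-28788661, plus strand), which acts on tubulin and on lysine 16 of histone H4, had 113, 116 and 115 CPM with vehicle and 80.3, 87.4 and 86.6 CPM with TGFβ. The groups were far apart, at a log2 fold change of -0.43 (SE 0.04, edgeR adjusted p = 2.41e-04). It was also by far the most abundant sirtuin per kb, and its share of the summed sirtuin level was 63.8% with vehicle and 56.5% with TGFβ. The sum itself was 35.6 ± 0.388 CPM per kb with vehicle and 29.8 ± 1.14 with TGFβ (SD, n = 3).

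*Sirt7*, a nucleolar deacetylase, fell by 0.17 on the log2 scale (SE 0.06, edgeR adjusted p = 0.0490), a call that DESeq2 (adjusted p = 0.195) and each removal of a library (0.0627 to 0.126) ended. It also overlaps *Mafg* on the same strand over 124 bases of its exons, a gene with 522% of its counts. *Sirt6*, a deacetylase of histone H3 on chromatin, had an estimate of 0.16 with groups that did not overlap, but missed the threshold (SE 0.07, edgeR adjusted p = 0.0979). *Sirt1*, the best studied of the family, gave 0.04 (interval -0.12 to 0.20), and the mitochondrial *Sirt3*, *Sirt4* and *Sirt5* gave -0.16, 0.02 and -0.13. The *Sirt3* and *Sirt5* values are uncertain, since *Sirt3* shares exon bases with *Ric8a* and *Psmd13* on the other strand and 31.4% of the windows of *Sirt5* also occur in *Wdr31*.

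**Figure D2:**
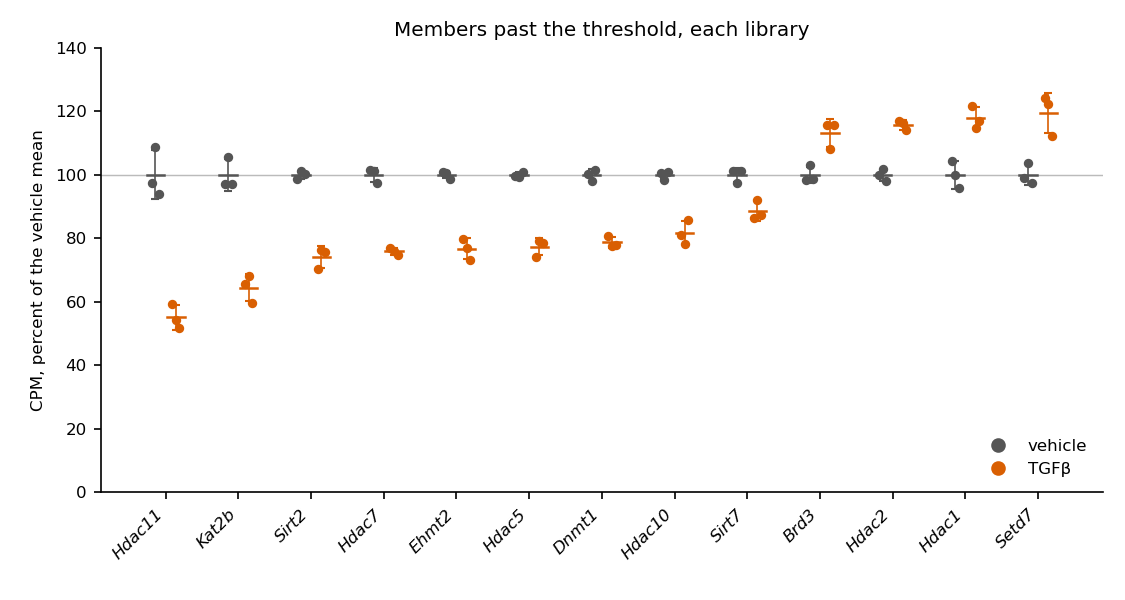
CPM in each library, as a percent of the vehicle mean (y axis), for the 13 members past the threshold, ordered by log2 fold change (x axis). Gray points are vehicle and orange points TGFβ libraries, with lines for means and bars for the SD (n = 3). The groups do not overlap in any of the 13, from 55.1% of vehicle in *Hdac11* to 120% in *Setd7*.

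Of the 9 histone acetyltransferases 1 was called, where 40.7% of all genes were. *Kat2b* (chr17:53566861-53672720, plus strand) encodes PCAF, a coactivator that acetylates lysine 9 of histone H3 in the SAGA and ATAC complexes. It had 65.6, 71.3 and 65.5 CPM with vehicle and 44.2, 46.0 and 40.3 CPM with TGFβ. All 3 TGFβ libraries lay well below vehicle, at 64.5% of its mean (log2 fold change -0.63, SE 0.06, edgeR adjusted p = 1.79e-04). *Kat2a*, which encodes GCN5 and takes the same place in those complexes, had an estimate of 0.05 with overlapping groups. Of the windows of *Kat2b*, 3.36% also occur in its pseudogene *Kat2b-ps*. With vehicle *Kat2b* was the more abundant of the pair per kb, 13.9 ± 0.686 against 9.78 ± 0.380 CPM per kb, and with TGFβ *Kat2a* was, 10.1 ± 0.618 against 8.94 ± 0.601 (SD, n = 3). That order rests on merged exon lengths, 4867 bases for *Kat2b* and 3480 for *Kat2a*. Without division by length *Kat2b* was higher in both groups, with means of 67.5 against 34.0 CPM with vehicle and 43.5 against 35.3 with TGFβ.

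*Ep300* and *Crebbp*, the general coactivators p300 and CBP that acetylate lysines 18 and 27 of histone H3 and bind SMADs, were not called. *Crebbp*, with the smaller adjusted p of the pair, had 60.8, 68.8 and 65.3 CPM with vehicle and 64.3, 61.9 and 57.2 CPM with TGFβ. The groups overlapped, and its log2 fold change was -0.09 (interval -0.23 to 0.05). *Ep300* gave -0.03 (interval -0.21 to 0.15). Of the MYST enzymes, *Kat6b*, a histone H3 lysine 23 acetyltransferase, came nearest to the threshold with 38.8, 38.8 and 38.9 CPM with vehicle and 35.7, 37.4 and 28.4 CPM with TGFβ. Its groups did not overlap, but the TGFβ libraries spread far more than those of vehicle (log2 fold change -0.20, SE 0.09, edgeR adjusted p = 0.129). *Kat5* (TIP60), *Kat6a* (MOZ), *Kat7* (HBO1) and *Kat8* (MOF) had estimates of 0.11, -0.11, 0.02 and -0.07. *Kat5* shares 12.1% of its exon bases with *Rnaseh2c* on the other strand, and whether counting used strand is not given in the sources used here.

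The TGFβ library of 28641986 counts had lower values in long genes than the other TGFβ libraries. Of the 10 members with over 9000 bases of exons (*Crebbp*, *Dnmt3a*, *Ep300*, *Hdac4*, *Hdac9*, *Kat6a*, *Kat6b*, *Nsd1*, *Setd2* and *Setd7*), 8 had their lowest TGFβ value in it, against 8 of the 31 others. Their median log2 deviation from the mean of the other 2 TGFβ libraries was -0.16, against -0.01 for the other members. Over 1802 genes of that length the median was -0.07, and over 4482 genes under 3000 bases it was 0.04. In the TGFβ library of 27851677 counts the medians lay the other way, at 0.10 for the long members, 0.06 for all long genes and -0.03 for the short ones. Without the library of 28641986 counts the log2 fold change was 0.29 for *Setd7* (edgeR adjusted p = 0.00263), -0.10 for *Kat6b*, -0.05 for *Kat6a* and *Crebbp*, 0.05 for *Ep300*, -0.04 for *Setd2*, -0.09 for *Dnmt3a*, -0.16 for *Hdac4*, -0.78 for *Hdac9* and 0.16 for *Nsd1*. *Nsd1* alone of the 10 then changed its call. The part of length or RNA quality in the values was not tested.

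Bromodomain proteins of the BET family bind acetylated histones and recruit the elongation machinery. *Brd3*, one of the family's ubiquitous members (chr2:27445579-27507662, minus strand), had 67.3, 70.5 and 67.6 CPM with vehicle and 79.3, 74.1 and 79.3 CPM with TGFβ. The groups did not overlap, and the log2 fold change was 0.18 (SE 0.04, edgeR adjusted p = 0.0129), which became 0.0515 without the TGFβ library of 27851677 counts. *Brd2* was the most abundant of all 41 members per kb, at 27.0 ± 0.958 CPM per kb with vehicle and 27.8 ± 0.624 with TGFβ (SD, n = 3), with a log2 fold change of 0.04 (interval -0.06 to 0.14).

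Of the 5 methyltransferases of histone H3 lysine 9, 1 was called (20%, against 40.7% of all genes). *Ehmt2* (chr17:34898469-34914052, plus strand) encodes G9a, which with its partner GLP places the mono- and dimethyl marks of silent euchromatin. It had 146, 145 and 143 CPM with vehicle and 115, 111 and 106 CPM with TGFβ. The groups were well apart, TGFβ standing at 76.7% of vehicle (log2 fold change -0.38, SE 0.04, edgeR adjusted p = 3.83e-04). *Ehmt1*, which encodes GLP, had an estimate of -0.10 with groups that did not overlap but missed the threshold (SE 0.04, edgeR adjusted p = 0.0803, and 0.0443 with upper quartile scaling). *Setdb1*, the trimethylating partner of KAP1, and *Suv39h1*, the enzyme of pericentric heterochromatin, gave -0.00 (intervals -0.13 to 0.13 and -0.27 to 0.27). *Setdb1* and *Suv39h2* share exon bases on the other strand with *Cers2* and *Dclre1c*, each of which has more counts. *Suv39h2* was at 0.537 to 1.28 CPM, and its estimate of 0.25 had an interval from -0.51 to 1.00.

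*Setd7* (chr3:51515319-51560879, minus strand), which places a single methyl group on lysine 4 of histone H3 and on several transcription factors, was the highest estimate of all members. It had 147, 154 and 144 CPM with vehicle and 184, 181 and 166 CPM with TGFβ. All TGFβ libraries lay above vehicle, at a log2 fold change of 0.26 (SE 0.05, edgeR adjusted p = 0.00550). *Setd2*, a trimethylase of lysine 36, had 102, 106 and 103 CPM with vehicle and 102, 100.5 and 89.1 CPM with TGFβ. The groups did not overlap, but only barely, as the nearest libraries of both stood at 101.6 CPM, and 1 TGFβ library was lower than the rest. The log2 fold change was -0.09 (interval -0.22 to 0.04). *Nsd1*, which places the dimethyl mark on the same lysine, gave 0.09 (interval -0.07 to 0.26), and without the TGFβ library of 28641986 counts it passed the threshold (edgeR adjusted p = 0.0300). *Dot1l*, the enzyme of lysine 79, had 30.2, 29.9 and 34.2 CPM with vehicle and 36.2, 32.0 and 32.9 CPM with TGFβ. Its groups overlapped, at a log2 fold change of 0.10 (interval -0.06 to 0.26).

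DNA methyltransferases all had estimates below 0. *Dnmt1* (chr9:20907209-20959888, minus strand), the maintenance enzyme, had 43.6, 42.6 and 44.2 CPM with vehicle and 35.0, 33.8 and 33.8 CPM with TGFβ. The groups were far apart beside their spread, at a log2 fold change of -0.35 (SE 0.04, edgeR adjusted p = 4.66e-04). *Dnmt3a*, a de novo enzyme, missed the threshold at -0.12 (SE 0.05, edgeR adjusted p = 0.0725), and passed it with upper quartile scaling (0.0352) and with a filter of 1 CPM (0.0440). *Dnmt3b*, the other de novo enzyme, was near 2 CPM with vehicle at 1.79 to 1.98 and gave -0.18 (interval -0.58 to 0.21). Of 22 proliferation genes, 13 were lower and 1 higher with TGFβ, and their summed level was 340 to 368 CPM with vehicle and 273 to 316 CPM with TGFβ. The part of cell division in the *Dnmt1* value was not tested.

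Levels per length order the enzymes of each class, and rest on the merged exon lengths. With vehicle, the highest were *Brd2* at 27.0, *Ehmt2* at 26.3, *Sirt2* at 22.7, *Hdac7* at 19.6, *Hdac1* at 19.5 and *Hdac2* at 17 CPM per kb. *Hdac7* and *Hdac1* did not differ beyond their SDs of 0.414 and 0.839. The lowest were *Hdac9* at 0.146, *Suv39h2* at 0.196 and *Dnmt3b* at 0.374 CPM per kb. The most abundant member per kb with vehicle was one that fell in class IIa (*Hdac7*), the sirtuins (*Sirt2*), the GCN5 pair (*Kat2b*), the H3K9 enzymes (*Ehmt2*) and the DNA methyltransferases (*Dnmt1*). In class I it was *Hdac1*, which rose and shares windows with a pseudogene, and in class IIb, p300/CBP, MYST, BET and H3K36 it was *Hdac6*, *Ep300*, *Kat7*, *Brd2* and *Setd2*, none of them called. Of all genes tested, 20.1% were called lower. The least counted members had the largest SEs, 0.29 for *Hdac9* and 0.33 for *Suv39h2*, against 0.04 for *Hdac7*. A change of the same size is therefore called less readily in them. By mean CPM with vehicle, not divided by length, *Dnmt3a* (54.1) exceeded *Dnmt1* (43.5) and *Nsd1* (117) exceeded *Setd2* (104). Likewise *Kat6a* (79.3) exceeded *Kat7* (63.3) and *Hdac2* (76.0) exceeded *Hdac1* (67.2). The top member of the other classes named was the same by CPM. The H3K9 sum was 39.2 ± 0.0702 with vehicle and 32.7 ± 0.850 CPM per kb with TGFβ, and the DNA methyltransferase sum 9.52 ± 0.121 and 7.96 ± 0.192 (SD, n = 3).

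**Figure D3:**
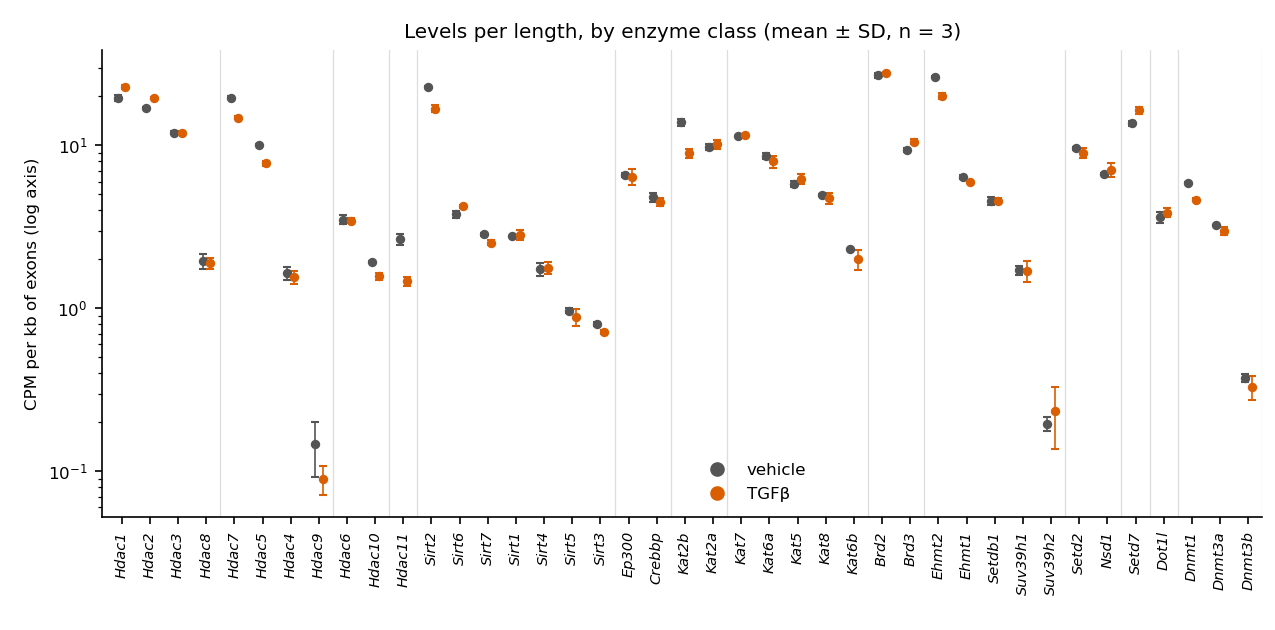
Level per length in CPM per kb of exons (y axis, log scale) for the 41 members, grouped by enzyme class and ordered by vehicle level within it. Points are means and bars SDs over 3 libraries, gray for vehicle and orange for TGFβ. Levels span from 0.146 for *Hdac9* to 27.0 CPM per kb for *Brd2* with vehicle.

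Ratios of related enzymes within a library do not depend on its scaling, but their size per kb depends on the exon lengths used. The 8 pairs compared were picked by hand, and no share over other pairs was computed. In 4 the groups did not overlap, and each of these 4 holds a called member. Each had a two-sided exact permutation p of 0.1, the smallest that 3 libraries against 3 allow, or 0.2 after Benjamini-Hochberg adjustment over the 8. Classes IIb and H3K36 were not among the pairs, and their shares did not overlap either. Nor did shares in other classes, such as those of *Sirt1*, *Sirt6* and *Setdb1*. Shares are tied, as a change in any member of a class moves those of the rest. Among single genes tested, 53.3% did not overlap. *Hdac6* was 62.6 to 65.7% of its class with vehicle and 66.8 to 69.7% with TGFβ. *Setd2* was 58.7 to 59.3% of its class with vehicle and 54.7 to 56.7% with TGFβ. *Kat2b* over *Kat2a* was 1.42, 1.53 and 1.32 with vehicle and 0.935, 0.960 and 0.764 with TGFβ. The ratio per kb thus crossed 1, which depends on the exon lengths. In counts *Kat2b* exceeded *Kat2a* in every library, with TGFβ at 1210, 1285 and 1149 against 925, 957 and 1076. The fall of the ratio does not depend on length. *Ehmt2* over *Ehmt1* was 4.12 ± 0.151 with vehicle and 3.37 ± 0.124 with TGFβ (SD, n = 3). *Dnmt3a* over *Dnmt1* was 0.552 ± 0.00820 and 0.645 ± 0.0262, and *Brd2* over *Brd3* 2.89 ± 0.145 and 2.63 ± 0.0783. *Hdac7* over *Hdac5*, *Hdac1* over *Hdac2*, *Ep300* over *Crebbp* and *Kat6b* over *Kat6a* overlapped between the groups, with log2 changes of -0.03, 0.03, 0.05 and -0.09.

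**Figure D4:**
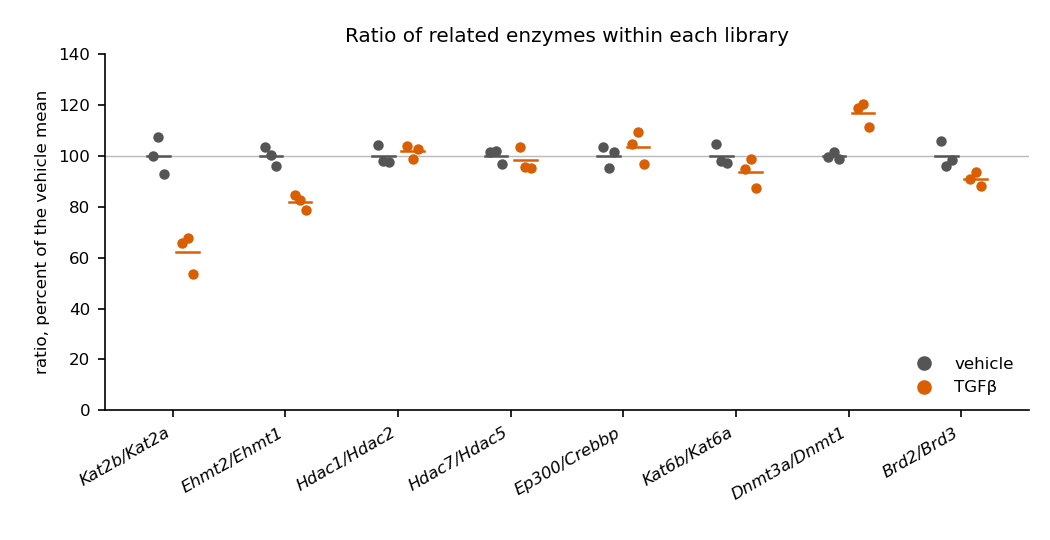
Ratio of CPM per kb of 8 pairs of related enzymes in each library, as a percent of the pair's vehicle mean (y axis), with gray points for vehicle, orange for TGFβ and lines for means (n = 3). The pairs *Kat2b* over *Kat2a*, *Ehmt2* over *Ehmt1*, *Dnmt3a* over *Dnmt1* and *Brd2* over *Brd3* do not overlap between groups, and the other 4 do.

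The genes that work with these enzymes were counted from lists of their complexes. These lists were chosen with earlier results of these data known. Each count is to be read against the shares of all genes, 20.5% called higher, 20.1% called lower and 40.7% called in either direction. Of 31 subunits of deacetylase corepressor complexes, 8 rose and 6 fell (45.2% called), with a median log2 fold change of 0.01. *Rcor2*, a CoREST subunit, rose by 0.53 and the NuRD helicase *Chd3* by 0.30, while *Tbl1xr1*, a corepressor exchange factor, fell by 0.56. Of 24 partners and kinases of class IIa deacetylases, 7 rose and 11 fell (75% called), with a median of -0.09. The 14-3-3 protein gene *Sfn* rose by 2.27, from 2.51, 2.09 and 2.21 CPM with vehicle to 10.7, 8.81 and 13.4 CPM with TGFβ. *Sik1*, a kinase that keeps class IIa enzymes in the cytoplasm, fell by 0.86, from 27.3, 28.7 and 26.5 to 15.4, 15 and 15 CPM. The calcium/calmodulin-dependent kinase *Camk2b*, at a mean of only 1.66 CPM with vehicle, fell by 0.71 while *Camk4*, from under 1 CPM, rose by 1.22. *Camk2a* and *Camk2d*, named after their values were seen, fell by 0.56 and 0.19 from means of 7.61 and 80.3 CPM. *Camk1*, likewise named afterwards, was not called, with an estimate of -0.02 at a mean of 82.15 CPM with vehicle. Among the MEF2 genes, *Mef2c*, named after its values were seen, fell by 0.48, and *Mef2a* and *Mef2d* had estimates of -0.05 and 0.04.

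Of 35 other acetyltransferases and subunits, 3 rose and 7 fell (28.6% called), with a median of -0.04. *Jade2*, a scaffold of the HBO1 complex, fell by 1.42 from 17, 17.8 and 19.6 CPM with vehicle to 6.21, 6.77 and 7.37 CPM with TGFβ. *Kat7*, the enzyme of that complex, had an estimate of 0.02. The related *Jade1* and *Jade3*, named after their values were seen, did not fall. *Jade1* rose by 0.26 (edgeR adjusted p = 0.00601), from a mean of 69.0 to 82.6 CPM, and *Jade3* had an estimate of 0.15. With vehicle, *Jade1* stood at 8.13 CPM per kb and *Jade2* at 1.69. *Meaf6*, *Ing3* and *Ncoa1* fell by 0.36, 0.28 and 0.27. Of 21 other bromodomain readers, 2 rose and 7 fell (42.9% called), with *Smarca2* (BRM) falling by 0.51 and *Smarca4* (BRG1), the alternative motor of the same remodeling complexes, rising by 0.27. *Phip* and *Atad2* fell by 0.45 and 0.27. The lowest estimate of this list, -0.99, is of a gene not named here, and 2 called genes changed by at least 0.5.

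Of 38 other histone methyltransferases, 5 rose and 2 fell (18.4% called), with a median of -0.02. Of the called genes with the largest changes, *Prmt1* rose by 0.40, *Prmt6* by 0.35, *Prmt5* by 0.27 and *Prmt7* by 0.23. Of 12 heterochromatin partners of the H3K9 enzymes, 3 rose and 1 fell (33.3% called), with *Cbx5* (HP1α) rising by 0.34 and *Cbx3* (HP1γ) falling by 0.25. Of 13 partners in DNA methylation, 2 rose and 6 fell (61.5% called), with a median of -0.26. *Uhrf1*, which brings DNMT1 to newly copied DNA, fell by 0.60, from 9.99, 10.1 and 11.5 CPM with vehicle to 6.58, 6.05 and 8.21 CPM with TGFβ. *Dnmt3l* fell by 0.71 and *Mbd1* by 0.57, while *Zbtb38* rose by 0.43. Of 17 genes that supply acetyl-CoA, NAD and S-adenosylmethionine, 2 rose and 5 fell (41.2% called). The lowest estimate of this list was -1.50, and 2 called genes that changed by at least 1 are not among those named here. *Acly*, which makes acetyl-CoA from citrate, rose by 0.26 and *Ahcy* by 0.33, while *Nampt* and *Naprt*, which feed the NAD that sirtuins use, fell by 0.25 and 0.66.

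**Figure D5:**
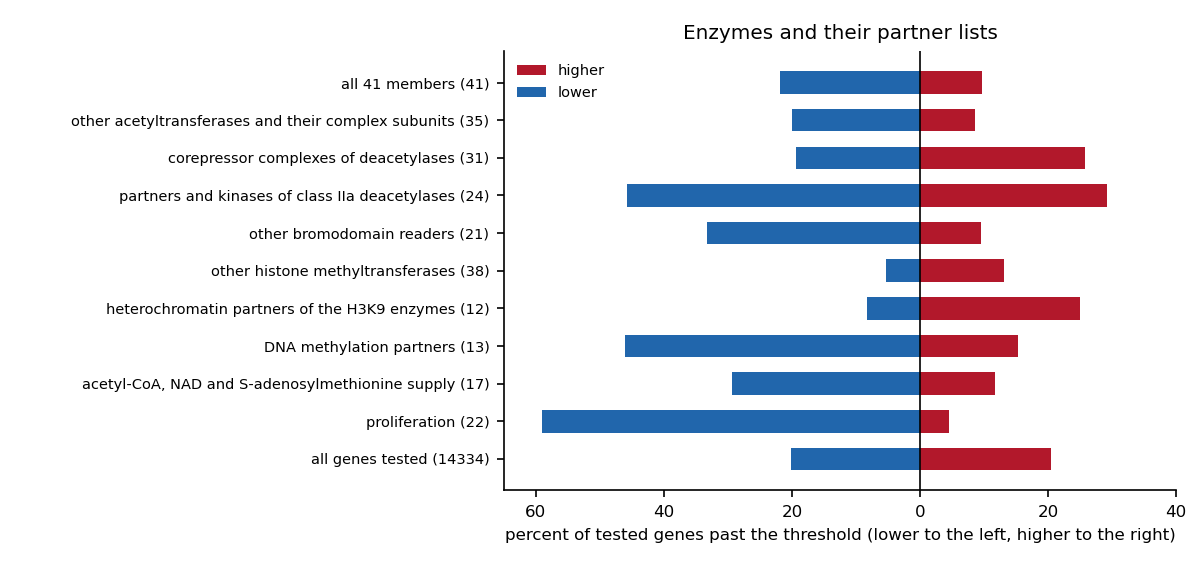
Percent of tested genes called lower (blue, left) and higher (red, right) with TGFβ at an edgeR adjusted p under 0.05, for the 41 members, 8 lists of their partners, proliferation genes and all genes tested, with the number tested in brackets. The members reach 9.76% higher and 22.0% lower, beside 20.5% and 20.1% of all genes.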

How the data were processed

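The authors prepared poly(A) RNA with a stranded kit, sequenced single-end reads of 75 bases and, per the labels' processing notes, used mm10 and DESeq2. The aligner, the counter, the annotation and the use of strand in counting are not given in the sources used here. The deposited table gives, for every gene and library, raw whole-number counts that were not normalized. It also holds the authors' own comparison (a mean, fold changes and p-values), which was not used. The number of per-sample columns not used was 0. The count columns name a group but not a replicate number, so libraries are called by their total count.

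TMM factors, filterByExpr and the quasi-likelihood test came from edgeR 4.0.16 in R 4.3.3, fitted to and adjusted over the 14334 of 25140 genes that passed the filter. The threshold was an adjusted p of 0.05. The SE is the log2 estimate over the root of the F statistic, and the intervals have 95% confidence. CPM is scaled by TMM, and CPM per kb uses merged exon lengths of GENCODE M21 (GRCm38), which holds all 41 members. Variation between libraries beyond counting error was 7.97% (edgeR's common coefficient), and counting error adds to it, most for members with few counts. The steps were tested on simulated counts. Windows of 75 bases that also occur in other genes' transcripts gauge shared reads.

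The members and lists were chosen with earlier results of these data known. Library values are given for called members with a log2 change of at least 0.5 and for the member of each class with the smallest adjusted p, with *Hdac5*, *Hdac3* and *Hdac9* added after their values were seen. Of each partner list, at most 4 called genes with the largest change and a mean of at least 1 CPM are named, and the result of 1 gene that this takes in is not reported here. The alternatives were other scalings, DESeq2 1.42.0, limma-voom (limma 3.58.1), other filters, each library left out, an adjusted p of 0.01 and a log2 change beyond 0.5.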

Additional observations from a re-analysis of the deposited data

How the results depend on the processing

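Of the 13 called members, 10 kept their call under each of the 12 alternatives per member that change scaling, tool, filter or libraries. The exceptions are *Hdac10* and *Sirt7* (DESeq2, no filter, and 5 and 6 of the libraries left out) and *Brd3* (1 library left out). Of the 28 others, 3 gained a call under an alternative (*Ehmt1*, *Dnmt3a* and *Nsd1*). No called member changed sign, and 10 of the others did. In all, 471 of 491 alternative values had the same call. The number of called members was 10 to 15 over these alternatives, and 10 to 13 with a library left out, when that of all genes was 4489 to 5481. At an adjusted p of 0.01 there were 3595 called genes (1855 higher, 1740 lower) and 10 called members. With a log2 fold change beyond 0.5 there were 2316 genes (820 higher, 1496 lower) and 2 members (0 higher, 2 lower). Both counts fall by construction. Upper quartile scaling gave 2684 higher and 3076 lower genes, against 2944 and 2884, and shifted the median log2 fold change by -0.0210. Without a filter, the adjusted p was 0.0638 for *Hdac10* and 0.129 for *Sirt7*. No paired analysis was possible from the labels because the count columns carry no replicate number. In column order, the summed fibroblast, endothelial, leukocyte, cardiomyocyte and mesothelial markers ranked the libraries alike in both groups. Leukocyte sums were 258, 273 and 368.5 CPM with vehicle and 227, 243 and 336 CPM with TGFβ. Smooth muscle and pericyte sums ranked otherwise, at 453, 470 and 531.5 CPM with vehicle and 444, 369 and 458 CPM with TGFβ. Pairing by column order was not tested, so any variation shared that way stays in the unpaired spread. The members with the lowest levels (*Hdac9*, *Suv39h2* and *Dnmt3b*) had the widest intervals.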
